A study of Mus musculus with 39 samples.

Results

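Acute-phase proteins are plasma and secreted proteins whose synthesis changes during inflammation. The 7 genes described here were chosen by name: Serpina3n, Orm1, Saa3, Lcn2, Lrg1, Hp and C3. The rule asked for a probe set annotated to the gene symbol alone and, where several exist, for the one with the highest mean log2 signal over all arrays. Of the 7 genes, 6 had such a probe set, exactly 1 each, so that the mean signal decided nothing, and all 6 passed the filter on low signal that left 13020 of 18193 genes. C3 was not analysed here. The genes were named with earlier results of these data known, and their tests below are read with that in mind.

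The liver makes most circulating acute-phase protein, driven by interleukin 6 through STAT3, by interleukin 1 through NF-kB and C/EBP factors, and by glucocorticoids. Several of these genes are also transcribed outside the liver, in epithelium, macrophages, adipocytes and developing neutrophils. The 7 proteins do different work. Serpina3n inhibits serine proteases, Orm1 (alpha-1-acid glycoprotein) carries lipids and drugs, Saa3 is a serum amyloid A made mainly outside the liver, Lcn2 binds bacterial siderophores and so withholds iron, Lrg1 is a leucine-rich glycoprotein that acts on TGF-beta signalling in vessels, Hp (haptoglobin) binds free haemoglobin, and C3 is the central component of complement. Alb, the liver's main plasma protein, served as the measure of liver transcript in each lung sample.

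Lungs of 39 female Crlj:CD1(ICR) mice were measured, 1 array each, in 8 groups. All animals ate powdered diet, which held no added compound (control), permethrin at 5000 ppm, permethrin at 10000 ppm or isoniazid at 2500 ppm, for 7 or 14 days. Permethrin belongs to the pyrethroids, which kill insects by acting on nerve sodium channels. Isoniazid, used against tuberculosis, is called a positive control for tumours in the labels. Mice were 11 weeks old in the 7-day groups and 12 weeks old in the 14-day groups, so that age and duration rise together. Each group held 5 animals, except permethrin 10000 ppm at 14 days with 4. Values are MAS5 signals in linear units, and fold changes come from quantile-normalized log2 signals without a pseudocount. The labels call the samples biological replicates, 1 animal each.

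Array medians ran from 17.4 to 26.2 signal units. On 7 arrays, all at 14 days, the log2 ratio of the 3' to the 5' Gapdh control probe set, a sign of RNA quality, was above 0.7: 2 each of control, permethrin 5000 ppm and isoniazid, and 1 of permethrin 10000 ppm. The defining lung markers were bright in every group, with Sftpc, the surfactant protein of alveolar type 2 cells, at 5098 or more and Scgb1a1, the club cell secretoglobin, at 6385 or more. In whole lung, fewer cells of a type and less RNA per cell cannot be told apart.

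Promoter sequence was set beside the results for genes that were called or that varied together: Serpina3n, whose isoniazid difference passed the test, and Saa3, Lcn2 and Lrg1, which varied together between animals. Sequences are RefSeq's, build GRCm38.p6, written 5' to 3' along the gene's strand. RefSeq's table held promoters for 5 of the 7 members, and Orm1 and Hp had no entry. Of the 250 bases before the listed start, only bases outside the gene's own extent are shown. The listed starts of Serpina3n and Saa3 lie inside the genes' extents. The Serpina3n stretch therefore ends at base 63 before its listed start, and for Saa3 only 30 bases round its match are shown. Capitals mark matches, on either strand, to the letters of a C/EBP site (TTGCNNAA) or of a glucocorticoid receptor half-site (TGTTCT).
Serpina3n, chr12:104406458-104406645, plus strand: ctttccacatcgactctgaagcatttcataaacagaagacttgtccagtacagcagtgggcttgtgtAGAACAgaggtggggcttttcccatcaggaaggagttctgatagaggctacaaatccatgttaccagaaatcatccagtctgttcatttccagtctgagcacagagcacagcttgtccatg
Saa3, chr7:46715757-46715786, minus strand: ggtaagtgggaTTATGCAAgatcaaacagg
Lcn2, chr2:32387740-32387989, minus strand: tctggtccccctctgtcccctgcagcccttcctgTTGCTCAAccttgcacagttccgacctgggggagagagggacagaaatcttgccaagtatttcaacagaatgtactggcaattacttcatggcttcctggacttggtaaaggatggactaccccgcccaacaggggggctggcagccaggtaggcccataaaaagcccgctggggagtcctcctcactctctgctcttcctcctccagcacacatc
Lrg1, chr17:56121947-56122196, minus strand: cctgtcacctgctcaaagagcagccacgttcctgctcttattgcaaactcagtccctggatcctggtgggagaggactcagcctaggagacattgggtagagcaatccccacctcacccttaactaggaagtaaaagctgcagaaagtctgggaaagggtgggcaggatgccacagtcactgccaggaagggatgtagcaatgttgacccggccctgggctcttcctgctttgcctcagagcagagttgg
Serpina3n held the half-site letters on the opposite strand, at bases 183 to 178 before the start. The C/EBP letters lay at bases 99 to 92 in Saa3, on the opposite strand, and at bases 216 to 209 in Lcn2. Neither STAT letters (TTCNNNGAA) nor an NF-kB site was matched in the 250 bases of these 4 promoters, and the shown stretch of Lrg1 held no match to any of the 4 motifs. Over all 32851 promoters of the table, windows of the same length held the half-site in 16.1%, C/EBP in 9.56%, NF-kB in 7.25% and STAT in 7.02%. These matches describe letters only.

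Serpina3n was higher in lungs of isoniazid-fed mice. In 7-day controls its signal was 42.5, 52.9, 57.3, 54.2 and 48.9. After 7 days of isoniazid it was 116, 148, 165, 363 and 65.3. All 5 treated animals lay above all 5 controls, and the treated values spread over a far wider range. The difference was 2.94-fold (log2 1.55, SE 0.37), but its adjusted p of 0.1245 (limma) did not pass the threshold of 0.05. Without isoniazid replicate 5, the lowest of its group, it was log2 1.85 with adjusted p = 0.01812, the 1 of 10 fits without 1 animal that passed. The others went down to log2 1.23, without replicate 4, with adjusted p = 0.4732. At 14 days, controls gave 50.8, 59.1, 82.6, 18.9 and 70.6. Isoniazid gave 90.9, 109, 73.7, 114 and 87.8 at that time. The 14-day groups overlapped, because the lowest isoniazid value lay under the highest control, and the log2 difference of 0.98 (SE 0.37, adjusted p = 0.7503) did not pass. Without control replicate 4, the animal at 18.9, it was 0.56. Averaged over both times, Serpina3n rose 2.41-fold with isoniazid (log2 1.27, SE 0.26, limma, adjusted p = 0.01632), 1 of 6 members called where 0.392% of all genes were. The animals above their control mean numbered 5 of 5 at 7 days and 5 of 5 at 14 days, where that mean included the control at 18.9.

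The isoniazid call on Serpina3n kept its side of the threshold when any 1 of the 20 animals was left out, with adjusted p from 0.00342 to 0.04024. It did not pass with Alb signal as a covariate (log2 1.13, adjusted p = 0.1558) or without the 7 arrays of high Gapdh ratio (log2 1.15, adjusted p = 0.1013). Nor did it pass with the liver or neutrophil marker level as a covariate (log2 1.14, adjusted p = 0.08252, and 1.15, adjusted p = 0.08588) or with only the compared groups in the model (adjusted p = 0.05803). One of those 7 arrays was the 14-day control with the lowest Serpina3n signal, 18.9. Mean Alb differed the other way between the same groups, with log2 -1.63 (SE 0.47, adjusted p = 0.1339), which did not pass. At 7 days 2 of 5 isoniazid lungs lay under all controls for Alb, and at 14 days 5 of 5.

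With permethrin, Serpina3n did not pass in any comparison. At 10000 ppm and 14 days its signals were 93.2, 110.5, 125 and 71.7, of which 3 lay above all controls. The log2 difference was 1.05 (SE 0.39, adjusted p = 0.6209), 0.63 without control replicate 4 and 0.56 without the high-ratio arrays. At 7 days the same dose gave 30.5 to 142, spread to both sides of the controls. At 5000 ppm the signals ran from 44.8 to 94.6 at 7 days and from 46.2 to 66.2 at 14 days, and both ranges overlapped those of the controls. Ordered by mean log2 level, isoniazid at 7 days was highest (7.19, SD 0.90), followed by permethrin 10000 ppm at 14 days (6.64, SD 0.35) and isoniazid at 14 days (6.57, SD 0.29). Control at 14 days was lowest (5.59, SD 0.98), next to control at 7 days (5.64, SD 0.21). Neighbours among the 8 groups differed by less than the larger SD of the pair, except isoniazid at 14 days and permethrin 5000 ppm at 7 days (6.07, SD 0.45).

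Orm1 was higher after 14 days of the higher permethrin dose. Its signals there were 60.1, 117, 58.2 and 24.9. In 14-day controls they were 11.3, 5.40, 11.1, 23.2 and 7.42. The groups did not overlap, and 4 of the 5 control values lay under the lowest array median. Orm1 rose 5.55-fold (log2 2.47, SE 0.48, limma, adjusted p = 0.00489). This was 1 of 6 members called, where 0.215% of all genes were called and 1.21% of all genes had every treated animal above every control. With 16 added to every signal, which damps differences among dim values, the log2 difference was 1.48 with adjusted p = 0.008321. Without permethrin replicate 2, the animal at 117, log2 was 2.11 and adjusted p 0.102.

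The 14-day controls were the low point of Orm1. In 7-day controls the signals were 70.7, 33.5, 27.7, 16.4 and 20.8, so that 3 of the 4 permethrin values at 14 days lay within the 7-day control range. Between the controls, 14 against 7 days, log2 was -1.52 (SE 0.45), and its adjusted p of 0.1153 did not pass. In that comparison 0 of 6 members were called by limma, 2 had an unadjusted p under 0.05, and 0.115% of all genes were called. At 5000 ppm and 14 days the signals were 38.4, 57.8, 41.8, 18.2 and 36.3, of which 4 lay above all controls. That log2 difference was 1.74 (SE 0.45, adjusted p = 0.2175). With isoniazid at 14 days they were 40.7, 8.12, 18.5, 15.9 and 44.2, overlapping the controls (log2 0.95, adjusted p = 0.8102).

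At 7 days Orm1 varied less between groups. Permethrin gave 27.5 to 38.9 at 5000 ppm and 27.4 to 63.6 at 10000 ppm, and isoniazid gave 35.4 to 71.4, all within or just above the control range. The permethrin 10000 ppm effect was larger at 14 than at 7 days by log2 2.12 (SE 0.65), which had an unadjusted p of 0.002542 and an adjusted p of 0.9998. The mean effect of 10000 ppm over both times on Orm1 was a 2.66-fold rise (log2 1.41, standard error 0.33, adjusted p = 0.02886), 1 of 6 members called where 0.499% of all genes were. It did not pass with the adipocyte (log2 0.97, adjusted p = 0.2272) or neutrophil (1.17, adjusted p = 0.1498) marker level as a covariate. With 16 added to every signal it was 0.85 (adjusted p = 0.03746). This call was kept in 10 of 19 fits that left out 1 animal. It was lost without control replicate 3, 4 or 5 or permethrin replicate 3 or 4 at 7 days, and without control replicate 2 or 5 or permethrin replicate 1 or 2 at 14 days, with log2 from 1.23 to 1.41. By mean log2 level, permethrin 10000 ppm at 14 days was highest (5.84, SD 0.91), then isoniazid at 7 days (5.69, SD 0.46), and control at 14 days was lowest (3.37, SD 0.70), under isoniazid at 14 days (4.32, SD 1.25). Each of these pairs of neighbours differed by less than the larger SD of the pair. Orm2 and Orm3, close copies of Orm1 that lie beside it in RefSeq's gene table, fell below the signal filter, and whether the Orm1 probe set also reads them was not tested.

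Markers of adipocytes moved with Orm1. The adipocyte list holds 15 genes, of which 13 were measured and 11 tested. In permethrin 10000 ppm against control at 14 days, 11 of 11 had a positive log2 difference, with a median of 1.51 against 0.02 over all genes, and 0 were called. Its summed level, the mean log2 signal of the 13 genes, ran from 4.07 to 7.59 in those permethrin lungs and from 3.74 to 5.47 in the 14-day controls. In 7-day controls it ran from 4.48 to 7.06. Adipoq, which encodes adiponectin and defines adipocytes, ran from 2.16 to 155 in 14-day controls and from 6.52 to 1319 with permethrin 10000 ppm at that time. Elovl3 (log2 1.51, adjusted p = 0.3853) and Retn (log2 2.76, adjusted p = 0.4259) had the smallest p of the list. With the list's level as a covariate, Orm1's difference was log2 1.74 with adjusted p = 0.1205, and with only the compared groups in the model it was 2.47 with adjusted p = 0.1155. Of the cardiac muscle genes 10 of 10 were positive there, with a median of 0.96, and 0 were called. The smallest p of that list was that of Myh6 with permethrin 5000 ppm at 14 days (log2 1.12, adjusted p = 0.54). Between the controls, 14 against 7 days, 2 of 11 adipocyte genes were positive (median log2 -1.14) and 0 of 10 cardiac genes (median -1.44), of which Myh6 fell by 1.64 on the log2 scale and was called. The club cell level (mean log2 of 10 markers) was also low in some of these lungs. It was 8.62, 9.19 and 8.93 in control replicates 2, 3 and 5 at 14 days, the 3 controls with the lowest deposited Orm1 signal, and 10.76 or more in the other 2. After normalization, Orm1 in control replicate 1 (log2 3.61) lay just under that in replicate 3 (3.65). With permethrin 10000 ppm the club cell level was 9.07 in replicate 4, the lowest Orm1 of that group, and 10.89 to 11.12 in the others. Against control, 9 of 10 club cell genes were positive there, with a median of 0.20, and 0 were called. With isoniazid at 14 days the 2 did not go together. The lowest Orm1 signal, 8.12 in replicate 2, had a club cell level of 10.93. The lowest club cell level, 8.90 in replicate 4, had an Orm1 signal of 15.9. The part of fat, heart or airway tissue in the Orm1 result was not tested.

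**Figure D1:**
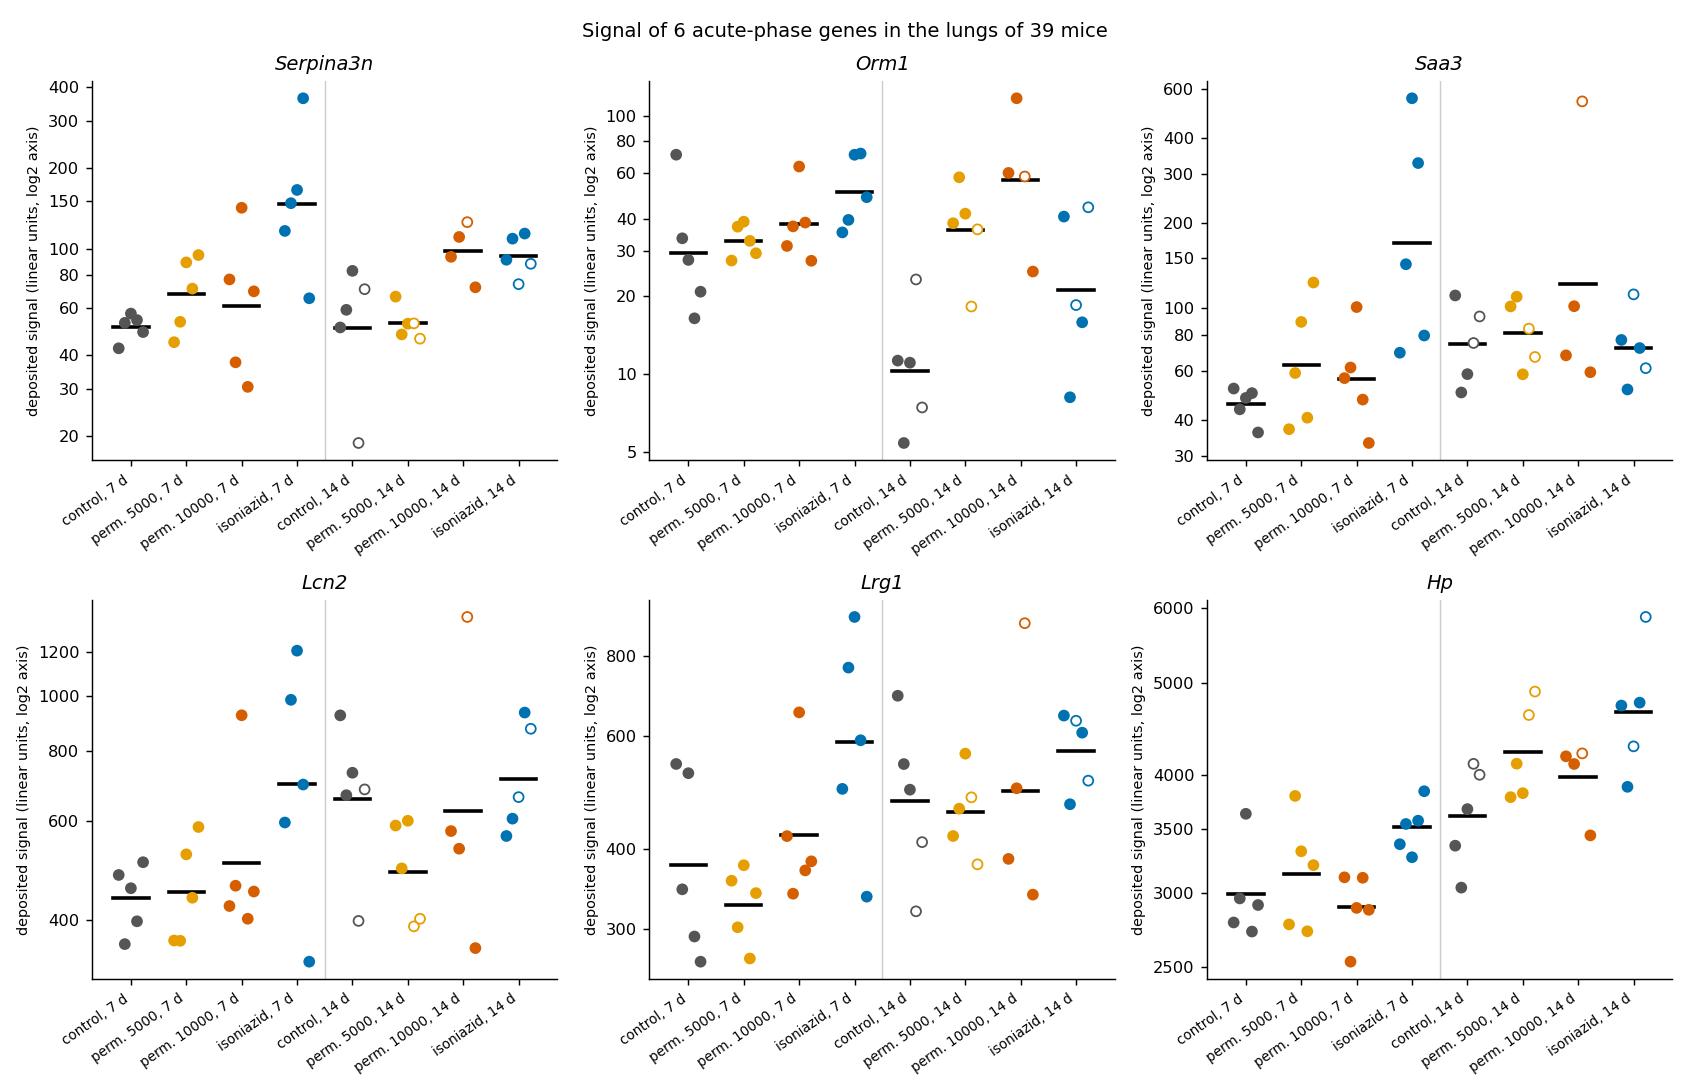
Deposited signal of the 6 measured members in each animal (linear units on a log2 axis), by diet and time. Each point is 1 lung, open points are the 7 arrays with a high Gapdh 3' to 5' ratio, and black bars are means of log2 signals. Isoniazid lungs at 7 days lie above the controls for Serpina3n (65.3 to 363) and Saa3 (69.5 to 555), and Orm1 is low in 14-day controls (5.40 to 23.2).

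Saa3 was high in some animals only. In 7-day controls it was 51.8, 43.8, 48.0, 49.9 and 36.2. After 7 days of isoniazid it was 69.5, 143, 555, 327 and 79.9. All 5 treated lungs lay above all controls, with 2 far above the rest. The log2 difference was 1.91 (SE 0.46, adjusted p = 0.1251) and did not pass. Of 10 fits without 1 animal, 1 passed, that without isoniazid replicate 5 (log2 2.19, adjusted p = 0.04476), and the lowest was 1.498, without replicate 3, with adjusted p = 0.511. At 14 days, isoniazid gave 51.4 to 112 and controls 50.2 to 111, so that the groups covered the same range, with a log2 difference of 0.01 (SE 0.46, adjusted p = 0.9989). The change of the isoniazid effect from 7 to 14 days was log2 -1.91 (SE 0.65, unadjusted p = 0.005921, adjusted p = 0.9996).

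Permethrin 10000 ppm at 14 days had 1 lung with a Saa3 signal of 541 beside 68.0, 102 and 59.2 in the others. Its log2 difference from controls was 0.77 (SE 0.49, adjusted p = 0.9268), and 0.05 without the lung at 541. The lung at 541 was also the highest of its group for Lcn2 and Lrg1 and was 1 of the 7 with a high Gapdh ratio. At 7 days the permethrin groups ran from 33.2 to 123. Between the controls, 14 against 7 days, log2 was 0.70 (SE 0.46, adjusted p = 0.5221). After normalization all 14-day controls lay above all 7-day controls, as for 1.78% of all genes, while in deposited signal the groups overlapped (50.2 against 51.8).

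Lcn2 was highest on average with isoniazid, at mean log2 9.47 (SD 0.28) at 14 days and 9.44 (SD 0.72) at 7 days, but hardly above control at 14 days (9.38, SD 0.43). Its 7-day control signals were 480.3, 362, 455, 397 and 506. Isoniazid at 7 days gave 596, 986, 1207, 696 and 336, of which 4 lay above all controls and 1 below them. The log2 difference was 0.68 (SE 0.28, adjusted p = 0.6588). At 14 days, controls ran from 398 to 925, isoniazid from 564 to 936, permethrin 5000 ppm from 389 to 600.1 and permethrin 10000 ppm from 356 to 1386. All 4 ranges overlapped. None of the 14-day differences passed, and that of isoniazid was log2 0.09 (SE 0.28, limma, adjusted p = 0.9914). Between control groups log2 was 0.62 (SE 0.28, adjusted p = 0.3009).

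Lrg1 gave 543, 346, 525, 292 and 267 in 7-day controls. With isoniazid at 7 days it gave 496, 767, 919.7, 591 and 337, with 3 lungs above all controls. The log2 difference was 0.63 (SE 0.24, adjusted p = 0.6129). With permethrin at 7 days Lrg1 ran from 269.9 to 377 at 5000 ppm and from 341 to 653 at 10000 ppm. At 14 days the 4 groups ran from 320 to 899 together and overlapped. No Lrg1 difference passed in any of the 15 comparisons.

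Hp differed from the other members in its small spread. After normalization its SD between animals of a group was 0.14 on the log2 scale, against 0.26 for the median gene, 0.40 for Lrg1, 0.47 for Lcn2, 0.63 for Serpina3n, 0.75 for Orm1 and 0.78 for Saa3. Hp was also the brightest member, at percentile 99.2 of mean signal among tested genes, against 86.7 for Lcn2 and 16.9 for Orm1. In 7-day controls its deposited signal ran from 2729 to 3636 and with isoniazid from 3271 to 3842. At 14 days, controls ran from 3037 to 4107 and isoniazid from 3884 to 5876, so that the groups overlapped at both times. Averaged over both times the isoniazid difference was log2 0.15 (SE 0.06, adjusted p = 0.4007), an interval from 0.03 to 0.27. With the deposited scaling it was 0.30 (adjusted p = 0.05911) and with arrays centred on their medians 0.33 (adjusted p = 0.2623), both above that interval and not past the threshold. Permethrin 10000 ppm against isoniazid gave log2 -0.24 (SE 0.06, adjusted p = 0.08376), which did not pass. In that comparison 0 of 6 members were called by limma, 2 had an unadjusted p under 0.05, and 0.353% of all genes were called.

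Counted together, few member differences passed. At 7 days limma called 0 of 6 members with permethrin 5000 ppm (0 with an unadjusted p under 0.05; 0.0922% of all genes called), 0 of 6 with permethrin 10000 ppm (0 unadjusted; 0.238%) and 0 of 6 with isoniazid (4 unadjusted; 0.0461%). With isoniazid at 7 days, 6 of 6 members had a positive difference, with a median of log2 0.74 against 0.01 over all genes. For 2 of the 6, every treated animal lay above every control, as did 1.12% of all genes. At 14 days limma called 0 of 6 with permethrin 5000 ppm (1 unadjusted; 0.131%) and 0 of 6 with isoniazid (2 unadjusted; 0.0307%). Averaged over both times, permethrin 5000 ppm gave 0 of 6 (1 unadjusted; 0.223%). The higher against the lower permethrin dose gave 0 of 6 (1 unadjusted; 0.00768%). The changes of the 3 treatment effects from 7 to 14 days gave 0 of 6 each (1 unadjusted in each; 0% of all genes). Treatments at 1 time share their control animals.

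**Figure D2:**
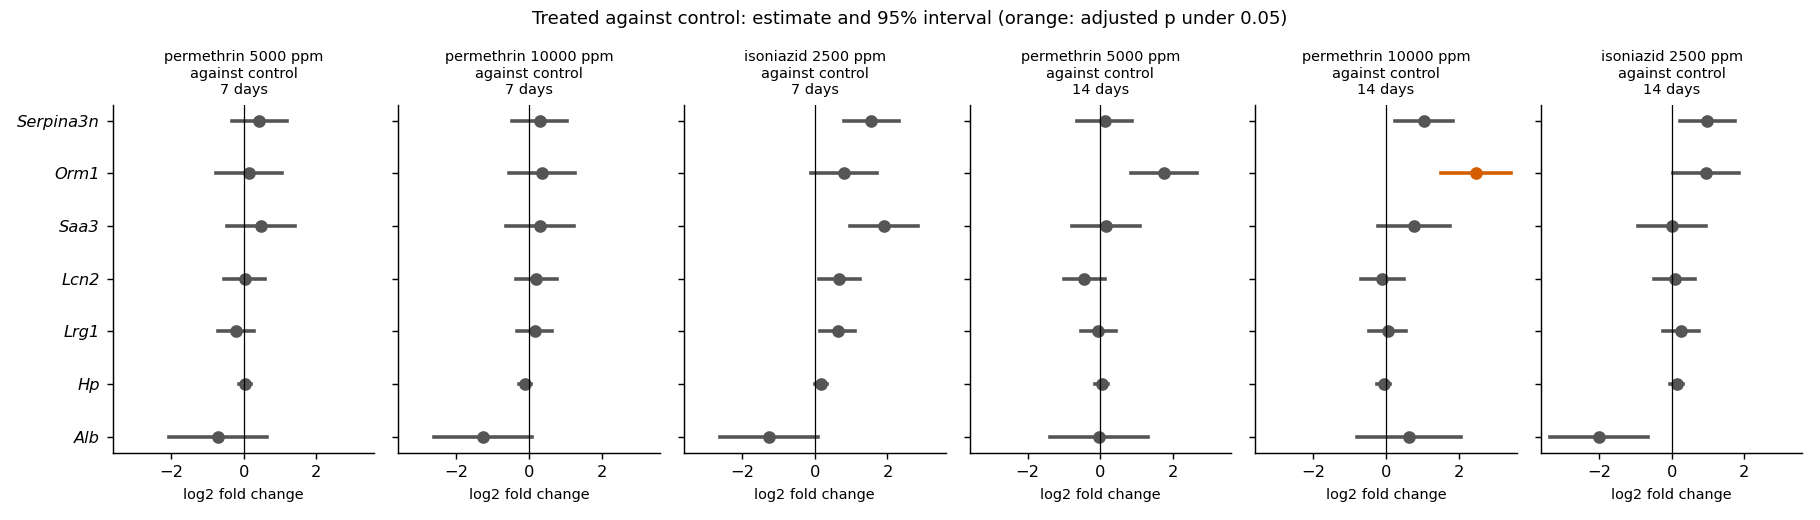
Log2 fold change of the 6 members and of Alb against the control of the same time, with 95% intervals from the linear model. Points to the right of 0 are higher in treated lungs. Orm1 with permethrin 10000 ppm at 14 days (log2 2.47) is the 1 value with an adjusted p under 0.05, drawn in orange, and Hp has the narrowest intervals.

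Alb itself varied widely. Its signal ran from 86.9 to 1109 in 7-day controls and from 121 to 334 in 14-day controls. With isoniazid at 14 days it was 62.0, 39.7, 87.2, 31.4 and 59.8, and all 5 lungs lay under all controls of that time, as for 0.276% of all genes. The log2 difference had a 95% interval from -3.35 to -0.65 (SE 0.67, adjusted p = 0.6312). For Serpina3n the same 2 groups overlapped, with 4 of 5 isoniazid lungs above all controls. Its control mean, which 5 of 5 exceeded, included replicate 4 at 18.9. The liver list holds 20 genes, of which 15 were measured and 13 tested. With isoniazid at 14 days 2 of 13 were positive, with a median of log2 -0.98, and in permethrin 10000 ppm at 14 days 11 of 13 were positive, with a median of 0.31. Summed levels (mean log2) ran from 4.24 to 5.04 with isoniazid at 14 days, from 4.94 to 6.34 with permethrin 10000 ppm and from 4.75 to 5.96 in their controls. None of the list was called. After Alb, Ambp had the smallest p (log2 -1.46, adjusted p = 0.2622, isoniazid, mean of both times).

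Between animals of the same group, no member's relation with Alb passed the test. Over 39 animals, deviations from the group mean correlated with those of Alb at Pearson r = -0.15 for Serpina3n (Spearman rho = -0.15, permutation p = 0.4262), 0.14 for Orm1 (rho = 0.07, permutation p = 0.362), 0.18 for Saa3 (rho = 0.08, permutation p = 0.3802), 0.12 for Lcn2 (rho = -0.09, permutation p = 0.5464), 0.03 for Lrg1 (rho = -0.03, permutation p = 0.892) and 0.02 for Hp (rho = 0.04, permutation p = 0.924). Adjusted over the 6 relations, the p of r was 0.8196 or more and that of rho 0.8726. Without the 2 animals farthest from the median of Alb, r lay between -0.01 (Serpina3n) and 0.31 (Saa3). A p that misses the threshold does not show that there is no relation. Within 14 days, Saa3 with Alb had r = 0.52 (n = 19, permutation p = 0.04865), with an adjusted permutation p of 0.2713, and within 7 days r = 0.03.

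**Figure D3:**
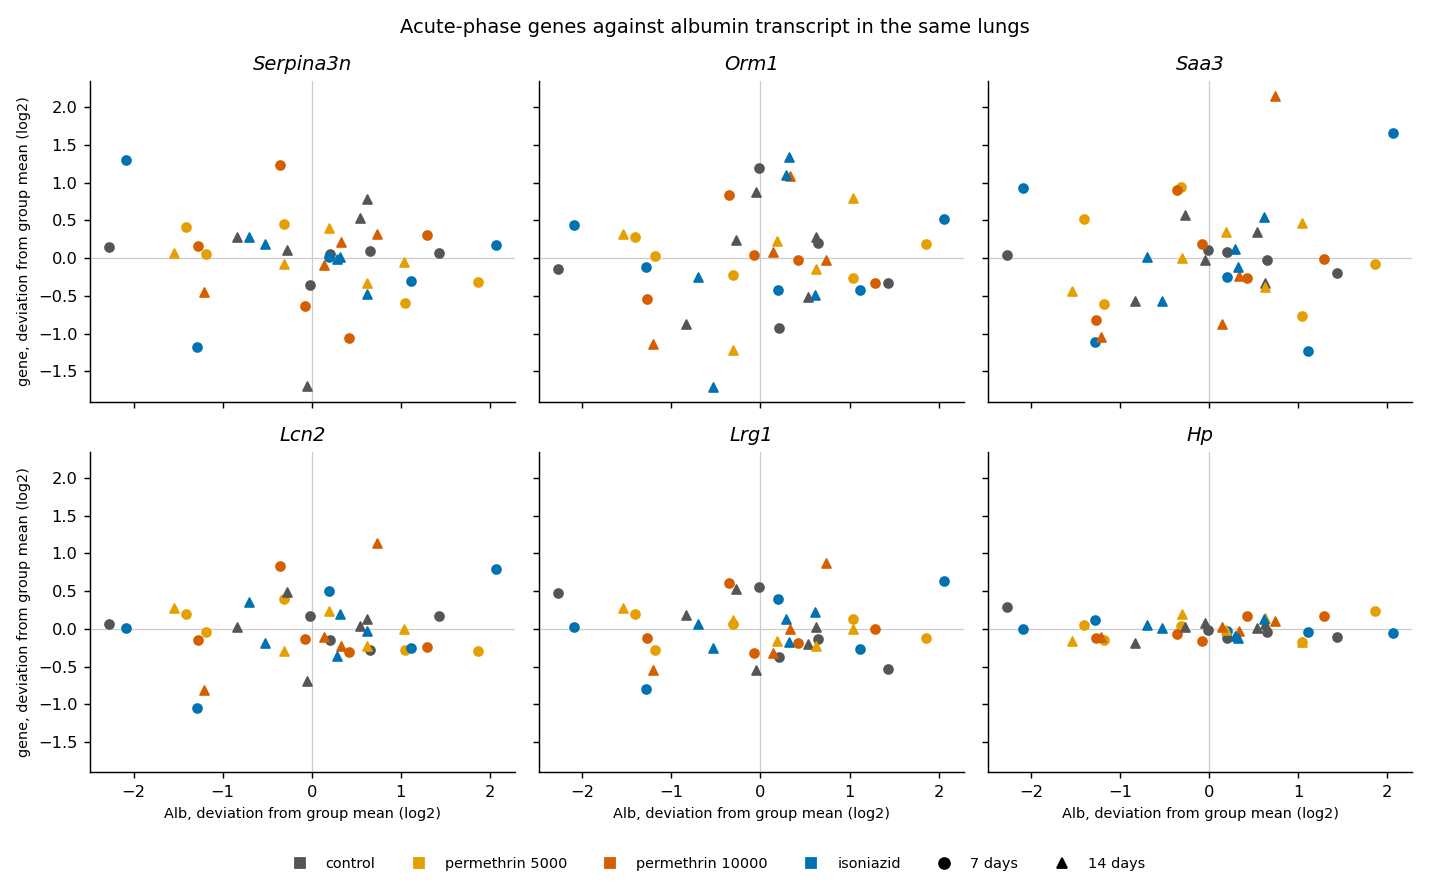
Deviation of each member from its group mean (log2, vertical) against that of Alb (log2, horizontal) for 39 lungs. Colours give diet, circles 7 days and triangles 14 days. Pearson r lay between -0.15 and 0.18.

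Saa3, Lcn2 and Lrg1 varied together and with markers of neutrophils. The neutrophil list holds 16 genes, of which 13 were measured and 11 tested. Its level (mean log2 of the 13) correlated with Saa3 at r = 0.80 (rho = 0.77, permutation p = 1e-05, the smallest that 100000 resamples can give, adjusted p = 6e-05). For Lcn2 r was 0.64 (rho = 0.57, permutation, adjusted p = 0.0019) and for Lrg1 0.60 (rho = 0.53, permutation, adjusted p = 0.0019). For Orm1 it was 0.39 (rho = 0.39, permutation, adjusted p = 0.01903). The adjusted permutation p of rho was 0.00012, 0.0036, 0.00518 and 0.03393 in that order. For Serpina3n (r = 0.21, adjusted permutation p = 0.4186) and Hp (r = 0.06, adjusted permutation p = 0.7298) no relation passed over both times together. Within 7 days, Serpina3n had r = 0.52 (adjusted permutation p = 0.0817), which did not pass, and rho = 0.58 (adjusted permutation p = 0.03876), which did. Within 14 days its r was -0.19 (adjusted permutation p = 0.711). Without the 2 animals farthest from the median of the list, r was 0.79 for Saa3, 0.67 for Lcn2, 0.60 for Lrg1 and 0.42 for Orm1. Within 7 days r was 0.82 for Saa3, 0.82 for Lcn2, 0.68 for Lrg1 and 0.46 for Orm1, all past the threshold after adjustment, though for Orm1 rho was 0.37 (adjusted permutation p = 0.1492) and r was 0.24 without 2 animals, and within 14 days 0.78, 0.47, 0.50 and 0.37, of which Saa3 alone passed. Without the 7 arrays of high Gapdh ratio, these 4 relations passed, at 0.80, 0.69, 0.64 and 0.42.

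The neutrophil list was also compared between groups. With isoniazid at 7 days 11 of 11 tested genes were positive, with a median of log2 0.74, and with permethrin 10000 ppm at 14 days 11 of 11, with a median of 0.46. None was called. In the second of these comparisons Lcn2 had log2 -0.10 and Lrg1 0.05. With the list's level as a covariate, the isoniazid difference at 7 days was log2 0.90 for Saa3, 0.19 for Lcn2, 0.24 for Lrg1 and 1.34 for Serpina3n, with none past the threshold. Summed levels ran from 6.17 to 8.11 with isoniazid at 7 days, against 5.94 to 6.46 in controls. S100a8, an abundant neutrophil calcium-binding protein, ran from 2009 to 6738 with isoniazid at 7 days and from 2305 to 3401 in controls. Il1r2 (log2 1.54, adjusted p = 0.4913, isoniazid at 7 days) and Ltf (log2 2.26, adjusted p = 0.5042, permethrin 10000 ppm at 14 days) had the smallest p. Neutrophils are known to store Lcn2 and Lrg1 in their granules. The part of neutrophils in these results was not tested.

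Among the members, Lcn2 and Lrg1 were closest (r = 0.78, rho = 0.61, permutation, adjusted p = 0.0003 over 15 pairs). Saa3 correlated with Lcn2 at 0.72 (rho = 0.55, permutation, adjusted p = 0.003187) and with Lrg1 at 0.65 (rho = 0.54, permutation, adjusted p = 0.003187). Serpina3n correlated with Lcn2 at 0.62 (rho = 0.62, permutation, adjusted p = 0.003187) and with Lrg1 at 0.45 (rho = 0.39, permutation, adjusted p = 0.04359). The Spearman correlation passed for the first 4 pairs (adjusted permutation p from 0.002175 to 0.01125) and not for the last (0.0623). Without the 2 animals farthest from the median of the first gene of each pair, r was 0.68, 0.57, 0.49, 0.49 and 0.28 in that order. Without the high-ratio arrays the last pair no longer passed (r = 0.40, adjusted permutation p = 0.169), and Orm1 passed with Saa3 (r = 0.49) and with Lrg1 (r = 0.50). Hp passed with no other member.

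Orm1 correlated with the adipocyte list at r = 0.60 (rho = 0.58, permutation p = 0.00181, adjusted p = 0.01086 for r and 0.00678 for rho). Without the 2 animals farthest from the list's median r was 0.57. Within 14 days it was 0.72 (n = 19, adjusted permutation p = 0.02784) and within 7 days 0.34 (n = 20, adjusted permutation p = 0.7172). Without the high-ratio arrays r was 0.56 and did not pass (adjusted permutation p = 0.1261). No other member passed with this list. With the Gapdh ratio itself no member passed after adjustment, and Serpina3n came nearest (r = -0.36, permutation p = 0.02976). In all, 108 relations were computed, adjusted within families of 6 or 15, and those other than with Alb were added after list values had been seen.

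**Figure D4:**
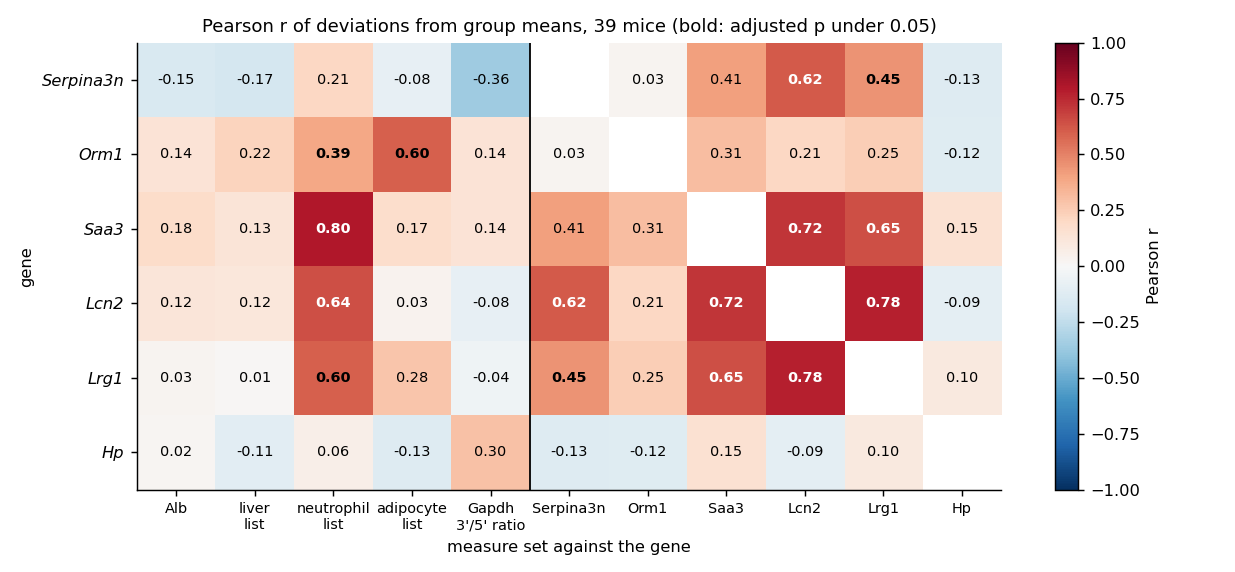
Pearson r between deviations from group means over 39 lungs, with members in rows and, in columns, Alb, the mean log2 level of 3 marker lists, the Gapdh 3' to 5' ratio and the members. Red is positive and blue negative, and bold values have an adjusted permutation p under 0.05. The block of Saa3, Lcn2 and Lrg1 (0.65 to 0.78) shares its relation with the neutrophil list (0.60 to 0.80), while the Alb column stays between -0.15 and 0.18.

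As a description over the 39 arrays, with treatment effects left in and no test, the genes most like each member were these. Saa3 was nearest to Mmp8 (r = 0.85), Ccr1 (0.83) and Wfdc17 (0.83). Lcn2 was nearest to Lrg1 (0.82), Wfdc21 (0.79) and Stfa3 (0.77), and Lrg1 to Lcn2, Stfa2l1 (0.73) and Wfdc21 (0.72). Orm1 was nearest to Adh7 (0.79), Pdlim4 (0.76) and Scara3 (0.74). Serpina3n was nearest to Sult1a1 (0.77), Galnt15 (0.76) and Cul1 (0.71). For Hp the highest were lower: Orai1 (0.64), Scnn1b (0.62) and Atf5 (0.62). Mmp8, a neutrophil collagenase, belongs to the neutrophil list.

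For the wider acute-phase response, the lists in this paragraph gave 0 calls against control. Of 30 other acute-phase proteins 26 were measured, 14 were tested and 0 were called in any of the 9 comparisons with control. Ceruloplasmin, Cp, had log2 0.53 (adjusted p = 0.7065) with permethrin 5000 ppm over both times, and Itih4 -0.57 (adjusted p = 0.9999) with 5000 ppm at 7 days. Among complement genes 14 of 24 were tested and 0 called, with Cd55 at 0.44 (adjusted p = 0.4294) and C6 at -0.26 (adjusted p = 0.6816). Of the inducing cytokines 7 of 13 were tested and 0 called. Il33 had log2 -0.45 (adjusted p = 0.4359) and Il1a 0.66 (adjusted p = 0.7928), both with permethrin 10000 ppm at 14 days. Receptors and signal transducers (18 of 21 tested) and feedback targets of STAT3 and NF-kB (14 of 15 tested) gave 0 calls, with Jak2 at 0.18 (adjusted p = 0.7347), Myd88 at 0.24 (adjusted p = 0.7182), Il4ra at 0.35 (adjusted p = 0.5556) and Icam1 at -0.18 (adjusted p = 0.4537) the smallest p. Of the feedback targets, 12 of 14 were positive with isoniazid at 7 days (median log2 0.13 against 0.01 over all genes). At 14 days 5 of 14 were positive with isoniazid (median -0.05). With permethrin, 6 to 8 of 14 were positive at each dose and time. Between the controls, 14 against 7 days, 13 of 14 were positive (median 0.22 against 0.02). Values given without a comparison can come from different treatments and times and do not describe 1 response.

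Among receptors and partners of the members, 17 of 21 were tested and 1 was called. Hmox1, haem oxygenase, which degrades the haem that haptoglobin helps to clear, rose with permethrin 10000 ppm at 7 days (log2 0.78, SE 0.16, adjusted p = 0.01102). Averaged over both times it rose with 10000 ppm (log2 0.64, adjusted p = 0.001415) and with 5000 ppm (log2 0.50, adjusted p = 0.03829), while Hp itself had log2 -0.09 and 0.03 in those comparisons. Of the glucocorticoid-induced genes 13 of 15 were tested and 2 were called. Mt1, a metallothionein, rose with isoniazid at 7 days (log2 1.01, adjusted p = 0.03772) and over both times with isoniazid (0.83, adjusted p = 0.003589) and permethrin 10000 ppm (0.80, adjusted p = 0.00199). Fkbp5, an immunophilin that glucocorticoids induce, rose with isoniazid over both times (log2 1.04, adjusted p = 0.02656), the comparison in which Serpina3n was called. With isoniazid over both times 13 of 13 genes of that list had a positive difference, with a median of 0.58 against 0.01 over all genes. The same count was found for permethrin 10000 ppm over both times (median 0.37) and at 7 days (median 0.43), where Serpina3n was not called. Serpina3n there had log2 0.67 over both times (SE 0.27, limma, unadjusted p = 0.01792, adjusted p = 0.606) and 0.29 at 7 days (SE 0.37). Between permethrin 10000 ppm and isoniazid over both times, its difference of log2 -0.59 (SE 0.27, limma, adjusted p = 0.7934) did not pass. Any part of glucocorticoids in the Serpina3n result was not tested.

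With values that can come from different treatments and times, markers of the other lung cells gave 0 calls against control. They were club cells (10 of 10 tested, Scgb3a2 log2 0.20, adjusted p = 0.1292, and Aldh1a7 0.24, adjusted p = 0.2189), alveolar type 2 cells (9 of 10, Sftpc 0.11, adjusted p = 0.9999, and Sftpb -0.37, adjusted p = 0.7471), macrophages (12 of 14, Marco 1.07, adjusted p = 0.5378, and Msr1 0.57, adjusted p = 0.6981), fibroblasts and mesothelium (12 of 12, Lum 0.96, adjusted p = 0.6209, and Col1a1 -0.32, adjusted p = 0.4215), and heart muscle (10 of 10, Myl7 1.19, adjusted p = 0.6018).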

How the data were processed

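RNA from 39 mouse lungs was labelled with biotin and hybridized to Affymetrix arrays, 1 lung each, per the labels' protocols. The authors deposited 1 signal intensity per probe set, on a linear scale; the submitters' processing notes name MAS5, with no version in the sources used here. Groups follow the sample titles.

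Signals were taken as log2 and quantile normalized, with no pseudocount, which removes changes shared by most genes. Of 45101 probe sets, 34945 carry 1 gene symbol in the platform annotation, 932 several, 9160 none and 64 are controls. Each gene kept its probe set of highest mean signal, in the upper 60% (signal of at least 10.8), which left 13020 genes. Limma 3.58.1 in R 4.3.3 fitted 8 group means to 39 arrays with a mean-variance trend. P-values were two-sided and adjusted by Benjamini-Hochberg over all genes of each of 15 comparisons, with 0.05 as threshold. The step was tested on simulated data. Correlations used deviations from group means and 100000 two-sided permutations within groups. Replicate numbers were not used to pair animals, since the labels do not say that a number is shared across groups. Same-numbered arrays correlated at -0.02 to 0.07 on average, against -0.01 for differently numbered arrays of different groups. These values cannot exclude a shared order or batch. The 7 arrays of high Gapdh ratio were all numbered 3, 4 or 5.

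The members and gene lists were chosen with earlier results of these data known. The report names every member, up to 4 called genes of each list or else the 2 with the smallest p (Alb and Ambp for liver), and the 3 genes most like each member. Sftpc, Scgb1a1, Adipoq, S100a8, Orm2 and Orm3 were added as markers or copies. Motifs, and all correlations other than with Alb, were added after values were seen. Alternatives were other scalings, filters, covariates, weights, blocks and subsets of animals. C3 was not analysed here. For arrays, their number limits the precision.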

Additional observations from a re-analysis of the deposited data

Results flagged for a closer look

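In 48 sets of 4 or 5 animals (6 members in 8 groups), 5 animals stood apart by Dixon's test, which chance alone does in about 1 in 20 sets. The test used normalized log2 values, and the deposited signals given here show some of the gaps less clearly. Serpina3n was 42.5 in control replicate 1 at 7 days, under 48.9 to 57.3 in the others. After normalization that was log2 5.28, under 5.69 to 5.79. In control replicate 4 at 14 days Serpina3n was 18.9, under 50.8 to 82.6. That control was an array with a high Gapdh 3' to 5' ratio. Lcn2 was 925 in permethrin 10000 ppm replicate 3 at 7 days, above 401 to 460 in the others. Hp was 3636 in control replicate 3 at 7 days, above 2729 to 2958, and 3037 in control replicate 2 at 14 days, under 3364 to 4107. After normalization the second of these was log2 11.65, under 11.85 to 11.91. No member's treatment effect differed between 7 and 14 days after adjustment.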

How the results depend on the processing

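No paired reading was made from the replicate numbers, since the labels do not say that a number is shared across groups. With replicate number as a block no count of called members changed, and Orm1 with permethrin 10000 ppm gave log2 2.45 at 14 days (adjusted p = 0.01062) and 1.40 over both times (adjusted p = 0.04294), and Serpina3n with isoniazid 1.27 over both times (adjusted p = 0.01767). Counts of called members fell from 1 to 0 as follows, while no called fold change changed direction. With the upper 40% of probe sets, Orm1 was filtered out, which gave 0 for permethrin 10000 ppm at 14 days and over both times. With only the compared groups in the model it was 0 for Orm1 at 14 days (log2 2.47, adjusted p = 0.1155) and for Serpina3n with isoniazid over both times (1.27, adjusted p = 0.05803). With covariates, Serpina3n was lost with Alb (1.13, adjusted p = 0.1558), the liver list (1.14, adjusted p = 0.08252) and the neutrophil list, added after seeing the data (1.15, adjusted p = 0.08588), and without high-ratio arrays (1.15, adjusted p = 0.1013). Orm1 was lost with the adipocyte list (1.74 at 14 days, adjusted p = 0.1205, and 0.97 over both times, adjusted p = 0.2272) and over both times with the neutrophil list (1.17, adjusted p = 0.1498). Array weights gave 2 calls for isoniazid at 7 days (Serpina3n and Saa3, adjusted p = 0.01224 each), 1 for permethrin 5000 ppm at 14 days and 1 for 14 against 7 days in controls, both Orm1. The causes were not tested. Leaving out 1 animal gave counts of 0 to 1 for permethrin 10000 ppm at 14 days (Orm1, log2 2.11 to 2.85) and over both times (1.23 to 1.60), 0 to 2 for isoniazid at 7 days, the 2 without isoniazid replicate 5, and 1 throughout for isoniazid over both times (Serpina3n, 1.06 to 1.41).

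Over both times together, correlations with Alb changed sign in 6 cases and passed in none: without high-ratio arrays the correlation of Lrg1 with Alb (-0.0165) and the correlation of Hp with Alb (-0.0397), with the liver list Hp (-0.11), and with values in place of deviations Lcn2 (-0.13), Lrg1 (-0.21) and Hp (-0.24). Within 7 days the sign also changed for Orm1 (-0.07), Lrg1 (-0.01) and Hp (-0.12), and within 14 days for Serpina3n (0.09). Of 90 member differences, 30 changed sign under some alternative, none with a main size above 0.47. A second probe set per member could not be tried, since each had 1. Orm1 lay below the lowest array median in 4 of 5 controls at 14 days, which limits the precision of its fold changes.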
